A study of Danio rerio with 20 samples.

Results

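CpG methylation was compared between the LPS-exposed fish of the 6H set and those of the 3H set, 10 of the 20 gonad samples of the series. The members were the 5 samples of each set labelled as treated with lipopolysaccharide (LPS, the endotoxin of Gram-negative bacteria, here of Pseudomonas aeruginosa). All fish were laboratory-reared zebrafish of the AB strain, treated as larvae and sampled as adults of 90 days. The labels do not say what 3H and 6H stand for, nor the sex of the fish or whether a sample is 1 fish, so p-values here reflect only how these samples vary, and that variation may be technical. A gonad holds several cell types, and a different mix of cells cannot be told apart from a different level per cell. The same series holds 5 control samples in each set, which entered the fit for their spread and are set beside the LPS samples where named.

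In vertebrates, DNA methyltransferases add a methyl group to cytosine in CpG dinucleotides, and dense CpG stretches near active gene starts usually stay unmethylated while most other CpGs are methylated. LPS is sensed by the innate immune system and sets off inflammation. The gonad holds germ cells and the somatic cells that support them, whose methylation differs by cell type. Bisulfite sequencing infers methylation from the base that is read, because unmethylated cytosine is converted and then read as thymine.

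CpGs were kept where 4 or more of the 5 samples of each LPS group reached 10 reads. This left 135 CpGs out of 402 positions listed in the 10 tables, and all 135 had at least 10 reads in all 10 samples. They fell into 8 regions, each a run of CpGs at most 500 bp apart, and none lay outside a region. The tables held between 419055 and 1443230 methylation calls per LPS sample, of which 99.93% to 99.96% lay at these CpGs. No genome or annotation of build GRCz11 was used here, so the regions are named by position (GRCz11, counted from 1) and carry no gene names and no sequence.

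The regions were of 3 kinds. Nearly unmethylated were chromosome 3 from 54607068 to 54607470 with 26 CpGs, chromosome 23 from 24973689 to 24974060 with 19 CpGs, and a region of chromosome 5 from 67992821 to 67993138 with 19 CpGs, called the second chromosome 5 region here. Partly methylated were chromosome 24 from 21640622 to 21640889 with 13 CpGs and the first chromosome 5 region from 44944720 to 44945152 with 24 CpGs. Mostly methylated were chromosome 10 from 44956550 to 44956872 with 9 CpGs, chromosome 18 from 39636122 to 39636564 with 18 CpGs and chromosome 19 from 27019198 to 27019584 with 7 CpGs. Among the LPS samples, the largest differences relative to their level were in the 3 nearly unmethylated regions, where 6H samples had the higher means, but neither a region nor a CpG passed the adjusted threshold.

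At position 44956872 of chromosome 10, 1 LPS library and 1 control library stood at the level of the other treatment. The 3H LPS samples were at 0.131%, 0.193%, 0.376%, 45.1% and 0.176%, and the 6H LPS samples at 0.336%, 0.290%, 0.337%, 0.186% and 0.228%. The 3H controls were at 0.271%, 48.8%, 45.02%, 44.2% and 47.6%, and the 6H controls at 47.7%, 42.8%, 46.6%, 44.1% and 45.5%. So 9 of 10 LPS samples were under 1% and 9 of 10 controls were above 40%, while 3H LPS replicate 4 was at the control level and 3H control replicate 1 at the LPS level. Whether these libraries carry the right labels was not tested. A value without 3H LPS replicate 4 is given for the chromosome 3 region, and values without both libraries for some set differences against controls. Other results keep them, apart from the ranges over samples left out.

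Regions were compared by the mean percent methylated over their CpGs, with a two-sided exact permutation test adjusted over the 8 regions at a threshold of 0.05. By this test 0 of 8 regions were called (0%), and 3 of 8 (37.5%) had an unadjusted p under 0.05. The exact permutation test of 5 against 5 samples cannot go below p = 0.00794, so 1 region alone could reach an adjusted p of 0.0635 at best.

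**Figure D1:**
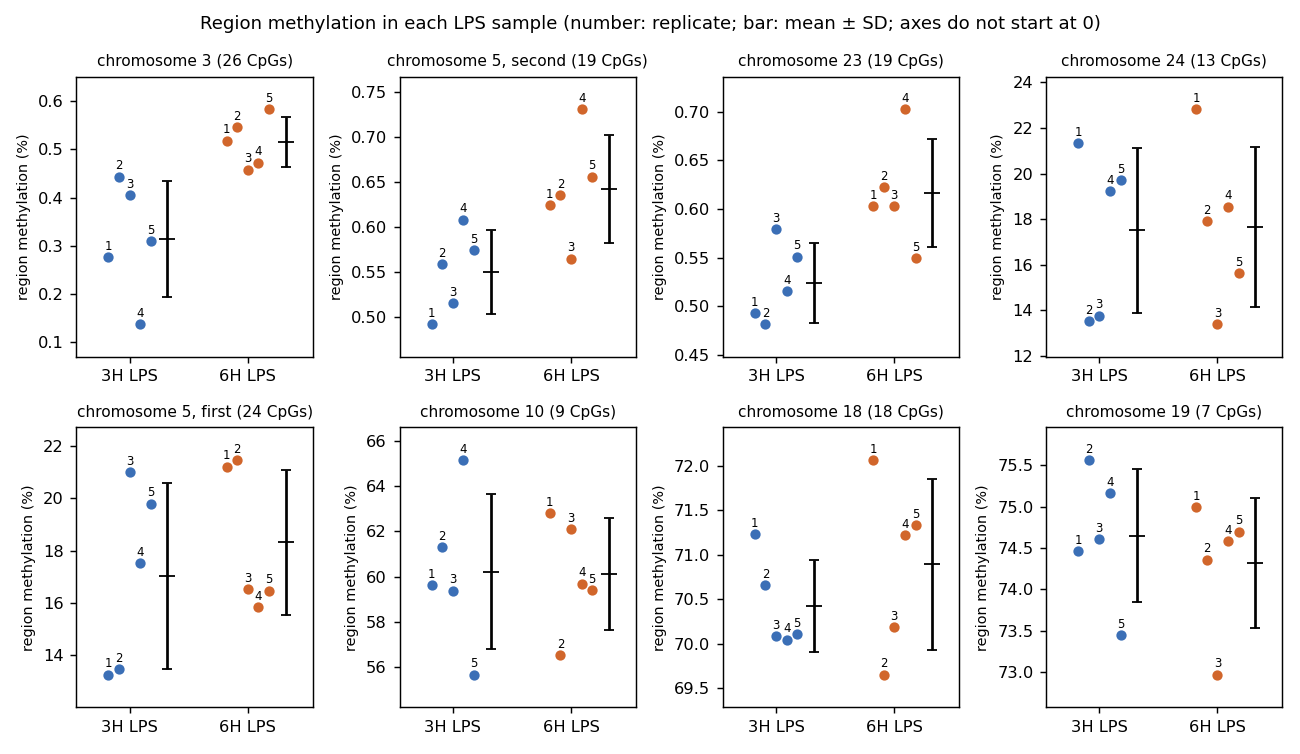
Region methylation in percent (y axis) in each 3H LPS and 6H LPS sample, with the replicate number at each point and the mean ± SD (n = 5) as a bar; the y axes differ and do not start at 0. In the chromosome 3 region every 6H sample lay above every 3H sample, while in the other 7 regions the groups overlapped.

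The chromosome 3 region had the clearest separation. In 3H LPS samples 1 to 5 its methylation was 0.276%, 0.443%, 0.405%, 0.137% and 0.309%. In 6H LPS samples 1 to 5 it was 0.518%, 0.546%, 0.458%, 0.472% and 0.583%. Every 6H sample lay above every 3H sample, which held for 1 of the 8 regions (12.5%). The means were 0.314% ± 0.120 (SD, n = 5) in 3H against 0.515% ± 0.0517 (SD, n = 5) in 6H. The ratio was 1.64-fold, and the 6H mean was higher by 0.201 percentage points, with a 95% interval of the difference from 0.0671 to 0.341 by inverting the permutation test. The exact permutation p was 0.00794, the smallest possible, and the adjusted p was 0.0635, so the region did not pass. Without 3H replicate 4, the lowest sample, the difference was 0.157 percentage points (exact permutation adjusted p = 0.0635). Leaving out any sample keeps these groups apart, which nearly fixes the unadjusted p in advance, so this p is no check on that sample. With the median CpG of each sample in place of the mean over CpGs, the difference was 0.0634 percentage points (exact permutation p = 0.349, adjusted p = 0.775), and on the log2 ratio scale the adjusted p was 0.169.

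These values rest on few methylated reads per CpG. Over the whole region a sample had between 123 and 1126 methylated reads, and the median depth per CpG was between 1168 and 8364 reads. The sample with the lowest depth, 3H replicate 3 with 1168 reads per CpG, was at 0.405%, and 3H replicate 4 with 4442 reads per CpG was at 0.137%. The median of the sample depths was 2844 reads in 3H and 4651 in 6H. Whether depth has a part in the difference was not tested. Of the 26 CpGs, 19 had a higher mean in 6H and 7 a lower one, and the median of the 26 differences was 0.149 percentage points. Over all 135 CpGs, 101 had a higher mean in 6H (74.8%) and the median difference was 0.186.

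The higher mean was not carried by the same CpGs in each sample. Values above 2% were found at 7 CpGs of the region, in 1 sample each, 2 of them in 3H and 5 in 6H. The highest was position 54607226 in 6H replicate 5 at 6.23%, from 231 methylated of 3708 reads. In 3H the highest was position 54607198 in replicate 2 at 3.84%, from 58 of 1510 reads. Values above 1% made up 4.62% of the 130 values of the 3H samples and 12.3% of those of the 6H samples, and the medians of these values were 0.173% and 0.243%. No CpG value in the other nearly unmethylated regions was above 2%.

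**Figure D2:**
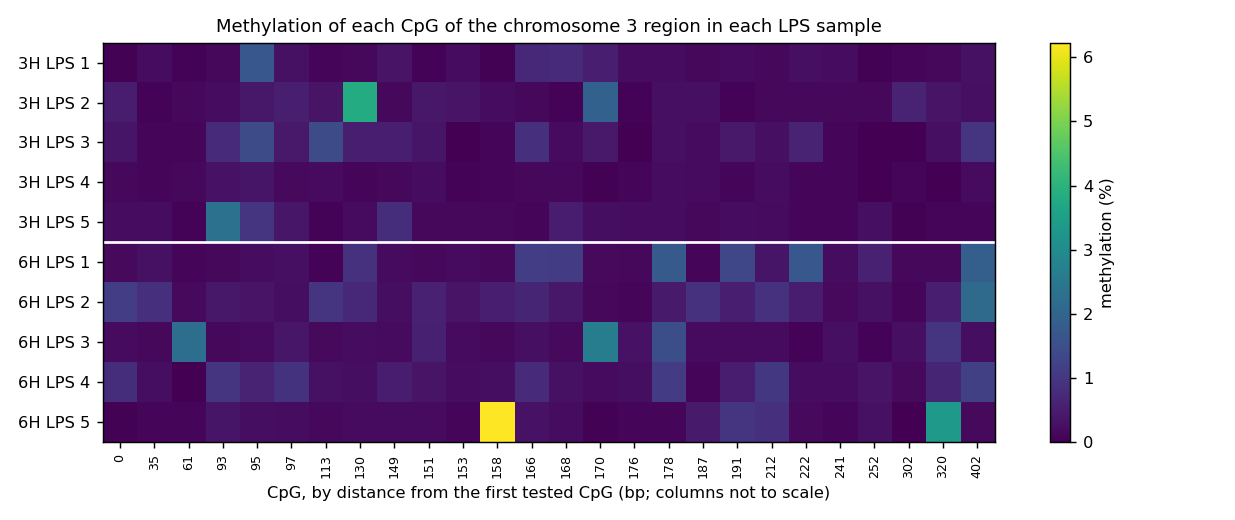
Methylation in percent (colour) of the 26 CpGs of the chromosome 3 region (columns, labelled by distance in bp from the first CpG) in each LPS sample (rows, 3H above the white line and 6H below). The values above 2% stand at different CpGs in different samples, with the highest, 6.23%, in 6H replicate 5.

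Among single CpGs, position 54607246 of this region had the smallest p of all 135 in the edgeR fit of all 20 samples. Which CpG came first depended on the fit. With only the LPS samples in the edgeR fit its p was 0.0160, against 0.00149 at position 24973822 of chromosome 23. By limma its p was 0.0122, against 0.00340 at position 54607163. At 54607246 the 3H LPS samples were at 0.211%, 0.265%, 0.257%, 0.203% and 0.197%. The 6H LPS samples were at 1.76%, 0.446%, 1.51%, 1.12% and 0.108%. All 6H samples except replicate 5 lay above all 3H samples. The means were 0.226% ± 0.0320 (SD, n = 5) and 0.987% ± 0.697 (SD, n = 5), with an edgeR log2 odds difference of 1.91 (adjusted p = 0.253). Leaving out 1 LPS sample at a time gave differences from 0.568 to 0.9804 percentage points and edgeR adjusted p from 0.00312 to 0.722. The CpG passed only without 6H replicate 5, the 6H sample that lay below every 3H sample. That run removes the value that goes against the direction, so it is no evidence for a difference.

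Position 54607163, which lies 2 bp from each of 54607161 and 54607165, went the other way. The 3H LPS samples were at 1.69%, 0.397%, 1.46%, 0.360% and 0.957%, and the 6H LPS samples at 0.215%, 0.324%, 0.172%, 0.615% and 0.243%. The groups overlapped through 3H replicates 2 and 4 and 6H replicate 4. The means were 0.972% ± 0.602 (SD, n = 5) in 3H against 0.314% ± 0.177 (SD, n = 5) in 6H, an edgeR log2 odds difference of -1.56 (adjusted p = 0.253). The third CpG by p, position 54607259, had means of 0.198% ± 0.140 (SD, n = 5) in 3H against 0.697% ± 0.447 (SD, n = 5) in 6H, with an edgeR log2 odds difference of 1.74 and an adjusted p of 0.489.

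The second chromosome 5 region was at 0.492%, 0.559%, 0.516%, 0.608% and 0.575% in 3H LPS samples 1 to 5. It was at 0.624%, 0.635%, 0.565%, 0.730% and 0.656% in 6H LPS samples 1 to 5. The groups overlapped only through 6H replicate 3, which lay below 3H replicates 4 and 5. The means were 0.550% ± 0.0463 (SD, n = 5) in 3H against 0.642% ± 0.0597 (SD, n = 5) in 6H. The ratio was 1.17-fold, and the difference 0.0923 percentage points with an interval from 0.0111 to 0.172 (exact permutation p = 0.0238, adjusted p = 0.0635). Median depth per CpG was between 1683 and 14405 reads. Here 17 of 19 CpGs had a higher mean in 6H, against 101 of all 135 CpGs (74.8%). The difference was spread over the region, with single CpGs between -0.221 and 0.401 percentage points.

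Its CpG with the smallest p was position 67993018. The 3H LPS samples were at 0.350%, 0.421%, 0.872%, 0.653% and 0.560% there, and the 6H LPS samples at 1.21%, 0.765%, 0.799%, 1.13% and 0.957%. Every 6H sample but replicates 2 and 3 lay above every 3H sample. The edgeR log2 odds difference was 0.82 (adjusted p = 0.489). Positions 67993038 and 67993108 had edgeR log2 odds differences of 0.69 and 0.58 (adjusted p = 0.489 and 0.674).

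On chromosome 23 the region was at 0.493%, 0.481%, 0.580%, 0.515% and 0.551% in 3H LPS samples 1 to 5. It was at 0.603%, 0.623%, 0.603%, 0.702% and 0.549% in 6H LPS samples 1 to 5. Only 6H replicate 5 lay within the range of the 3H samples. The means were 0.524% ± 0.0408 (SD, n = 5) in 3H against 0.616% ± 0.0554 (SD, n = 5) in 6H. The ratio was 1.18-fold, and the difference 0.0920 percentage points with an interval from 0.0230 to 0.165 (exact permutation p = 0.0238, adjusted p = 0.0635). This was the most deeply read of the 3, with a median of 4042 to 43016 reads per CpG. A higher mean in 6H was found at 15 of 19 CpGs, against 101 of all 135 CpGs (74.8%), and the median difference was 0.0729 percentage points.

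The smallest p of the region was at position 24973735. There the 3H LPS samples were at 0.235%, 0.338%, 0.634%, 0.235% and 0.463%, and the 6H LPS samples at 0.692%, 0.990%, 0.555%, 0.792% and 0.426%. The groups overlapped through 3H replicates 3 and 5 and 6H replicates 3 and 5. The edgeR log2 odds difference was 0.89 (adjusted p = 0.489).

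At position 24973822, the next by p, all 6H samples lay above all 3H samples, the only 1 of 135 CpGs with separate groups in that direction (0.741%), and 0 of 135 (0%) separated the other way. The 3H LPS samples were at 0.512%, 0.499%, 0.498%, 0.497% and 0.3998%, and the 6H LPS samples at 0.640%, 0.792%, 1.03%, 0.715% and 0.621%. The edgeR log2 odds difference was 0.64 (adjusted p = 0.489). Position 24973782 had an edgeR log2 odds difference of 0.66 (adjusted p = 0.489), with overlapping groups.

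**Figure D3:**
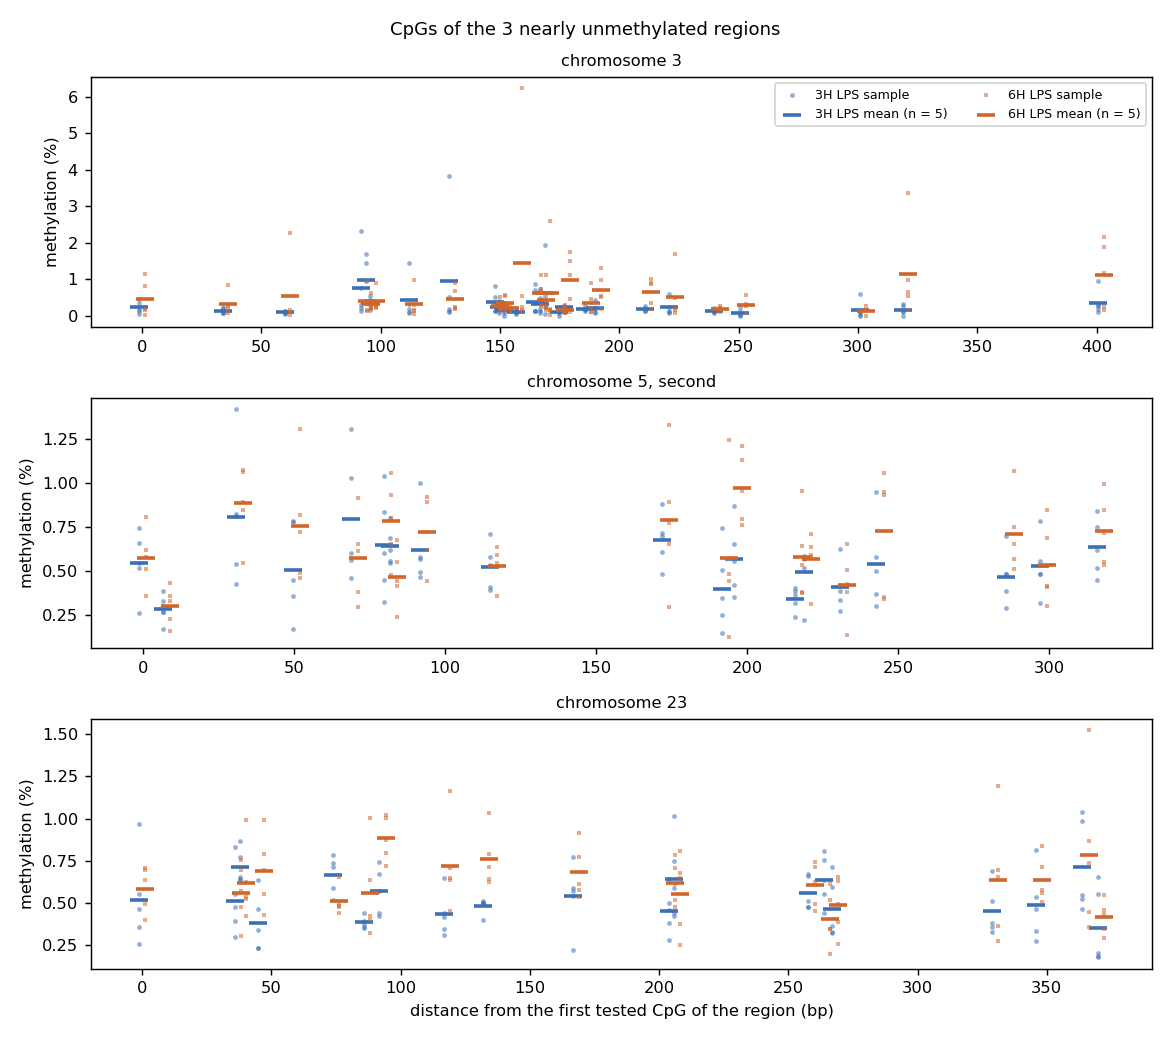
Methylation in percent (y axis; scales differ) of each CpG of the nearly unmethylated regions by distance in bp from the first CpG (x axis), with samples as points and group means (n = 5) as bars. The 6H mean is the higher at 19 of 26, 17 of 19 and 15 of 19 CpGs on chromosome 3, in the second chromosome 5 region and on chromosome 23. Over all 135 CpGs it is the higher at 101 (74.8%).

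The 3 nearly unmethylated regions were read in the same libraries, so their differences are not independent of each other. No measure of bisulfite conversion was used, and values under 1% include unconverted and misread bases, whose part in the result was not tested.

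EdgeR called 0 of 135 CpGs (0%) and its lowest adjusted p was 0.253. An unadjusted p under 0.05 was found at 13 CpGs (9.63%). Of these 13, 12 had the higher mean in 6H (8.89% of all CpGs), and 12 lay in the nearly unmethylated regions, which hold 64 of the 135 CpGs. By region, 6 of 26 CpGs on chromosome 3, 4 of 19 on chromosome 23 and 2 of 19 in the second chromosome 5 region had an unadjusted p under 0.05, against 1 of 24 in the first chromosome 5 region and none in the other 4 regions. Limma called 0 CpGs and had 12 with an unadjusted p under 0.05. Testing each CpG by exact permutation called 0 as well and also had 12. If the called CpGs were all at its minimum p, 22 of them would be needed for a call, and 1 was there. The lowest adjusted p by that exact permutation test was 0.5.

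The controls of both sets were compared in the same way, which sets the difference among exposed fish beside that among controls. In the second chromosome 5 region 6H controls were at 0.513% ± 0.0471 (SD, n = 5) and 3H controls at 0.712% ± 0.0450 (SD, n = 5), a set difference of -0.199 percentage points in controls against 0.0923 in LPS samples. On chromosome 23 it was -0.157 in controls and 0.0920 in LPS samples. On chromosome 3 it was -0.0208 in controls and 0.201 in LPS samples. The set difference in LPS samples minus that in controls passed for 2 of 8 regions (25%), the second chromosome 5 region by 0.291 percentage points (permutation adjusted p = 0.000252) and chromosome 23 by 0.249 (permutation adjusted p = 0.000378). It did not pass for chromosome 3 (permutation adjusted p = 0.151). Without 3H LPS replicate 4 and 3H control replicate 1 the values were 0.293 in the second chromosome 5 region and 0.247 on chromosome 23 (permutation adjusted p = 0.000504 and 0.00126). This test is approximate, since the centre of each set is estimated from the same samples. In both regions the 6H controls were lower than the 3H controls (exact permutation adjusted p = 0.0317 for each), while the difference between the LPS groups did not pass in either.

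The chromosome 24 region went from higher to lower methylation along its length. From position 21640685 on, all CpG means were between 3.78% and 14.4%. At the most methylated CpG, position 21640648, the means were 42.9% in 3H and 45.04% in 6H. The region was at 21.3%, 13.5%, 13.8%, 19.2% and 19.7% in 3H LPS samples 1 to 5 and at 22.8%, 17.9%, 13.4%, 18.5% and 15.6% in 6H LPS samples 1 to 5, with overlapping groups and a difference of 0.141 percentage points (interval -5.71 to 5.03, exact permutation adjusted p = 0.984).

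The spread between samples on chromosome 24 was widest at its first CpGs, positions 21640622 and 21640624. At 21640622 the 3H LPS samples were at 49.95%, 7.32%, 4.42%, 46.4% and 29.8%, and the 6H LPS samples at 45.9%, 12.2%, 4.90%, 47.3% and 24.5%. At 21640624 the 3H LPS samples were at 48.0%, 10.9%, 7.27%, 40.5% and 45.1%, and the 6H LPS samples at 48.0%, 27.3%, 7.25%, 14.1% and 10.4%. Each set held high and low samples at both CpGs. Replicate 5 of each set lay in between at 21640622, and 6H replicate 2 lay in between at 21640624. A sample could be high at one and low at the other, as 6H replicate 4 was at 47.3% and 14.1%. Each of these values rests on at least 1307 reads. LPS samples with the same replicate number lay within 5.35 percentage points of each other at 21640622, but up to 34.6 apart at 21640624. Among controls, same-numbered samples were up to 83.9 percentage points apart at 21640622.

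Without these CpGs the samples lay close together, between 14.3% and 16.5% in 3H and between 14.7% and 18.4% in 6H. Over the 11 remaining CpGs the means were 15.4% ± 0.945 (SD, n = 5) and 16.5% ± 1.54 (SD, n = 5), with 6H higher by 1.04 percentage points. The higher mean was in 6H at 10 of these 11 CpGs, against 101 of all 135 CpGs (74.8%). Position 21640811 had the smallest p of the region, with a mean of 12.7% ± 0.353 (SD, n = 5) for 3H and of 14.4% ± 1.98 (SD, n = 5) for 6H (edgeR log2 odds difference 0.20, adjusted p = 0.986). At this CpG 4 of 5 6H samples were above every 3H sample and replicate 3, at 11.5%, was below all of them. Positions 21640651 and 21640721 differed by 2.30 and 0.739 percentage points (edgeR adjusted p = 0.987 for both).

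**Figure D4:**
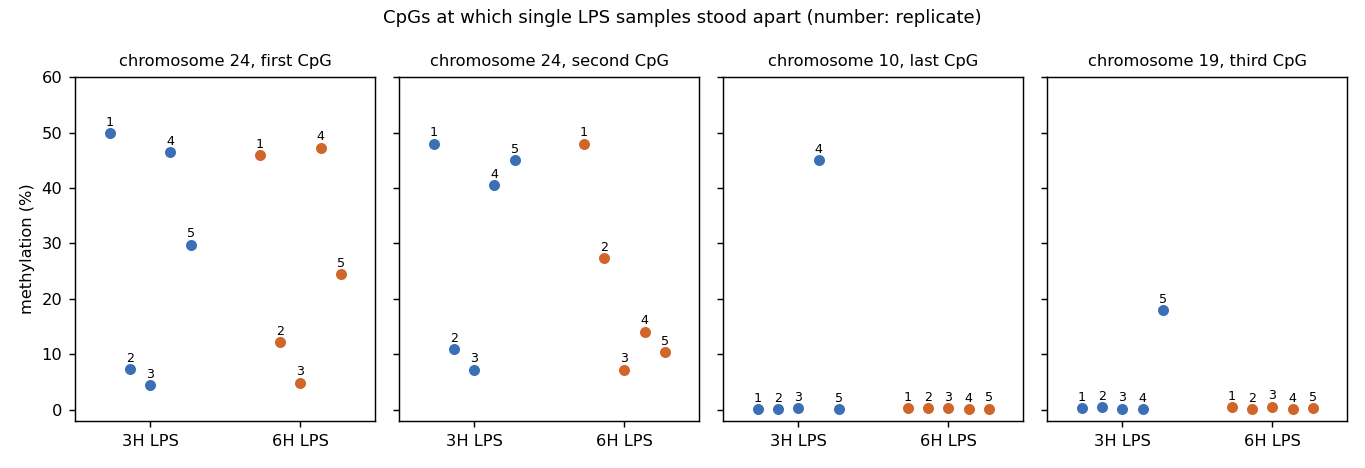
Methylation in percent (y axis) of 4 CpGs in each 3H LPS and 6H LPS sample, with the replicate number at each point. Both chromosome 24 CpGs have high and low samples in each set, while the chromosome 10 and chromosome 19 CpGs each have 1 high LPS sample, 3H replicate 4 at 45.1% and 3H replicate 5 at 17.98%. Controls are not drawn, and 9 of 10 of them were above 40% at the chromosome 10 CpG and 1 was at 18.5% at the chromosome 19 CpG.

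The first chromosome 5 region had the lowest depth of the 8 regions in all 10 samples. The median depth per CpG was 22, 468, 24, 71 and 33 reads in 3H LPS samples 1 to 5 and 311, 257, 2210, 51 and 91 reads in 6H LPS samples 1 to 5. The region was at 13.3%, 13.5%, 21.0%, 17.5% and 19.8% in 3H and at 21.2%, 21.5%, 16.5%, 15.8% and 16.5% in 6H. Both groups covered a similar range, and the difference of 1.30 percentage points had an interval from -3.95 to 5.96 (exact permutation adjusted p = 0.741). The difference was 0.359 without 3H replicate 1 and 2.30 without 3H replicate 3.

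Its CpGs formed a varied profile, from 3.23% in 3H and 4.27% in 6H at position 44944858 to 47.8% and 49.6% at position 44945108. The smallest p was at position 44945105, the neighbour of the most methylated CpG. The 3H LPS samples were at 18.2%, 21.6%, 25.0%, 23.6% and 33.3%, and the 6H LPS samples at 36.3%, 33.5%, 30.2%, 29.4% and 26.7%. All 6H samples lay above 4 of the 3H samples, and 3H replicate 5 lay within their range, with 11 methylated of 33 reads. The means were 24.3% ± 5.64 (SD, n = 5) and 31.2% ± 3.75 (SD, n = 5), with an edgeR log2 odds difference of 0.52 (adjusted p = 0.489). In 3H replicate 1 the value came from 4 of 22 reads, with an exact 95% binomial interval from 5.19% to 40.3%, while in 6H replicate 3 it came from 667 of 2210 reads, with an interval from 28.3% to 32.1%. These intervals cover counting error only. Positions 44944743 and 44944807 differed by 5.99 and 3.51 percentage points (edgeR adjusted p = 0.806 and 0.913).

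Chromosome 10 was at 59.6%, 61.3%, 59.4%, 65.2% and 55.7% in 3H LPS samples 1 to 5 and at 62.8%, 56.5%, 62.1%, 59.7% and 59.4% in 6H LPS samples 1 to 5. The groups overlapped throughout, and the means of 60.2% ± 3.45 (SD, n = 5) and 60.1% ± 2.49 (SD, n = 5) differed by -0.108 percentage points (interval -4.76 to 3.98, exact permutation adjusted p = 0.984). Its last CpG, position 44956872, was at 45.1% in 3H replicate 4, from 895 of 1986 reads, which is the level of 9 of the 10 controls, and under 1% in each of the other 9 LPS samples. Without this CpG the difference was 0.993 percentage points, in the other direction.

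The first 7 CpGs of chromosome 10, from 44956550 to 44956647, were high or low together in some samples. Their mean was 63.2%, 65.5%, 63.0%, 63.9% and 58.0% in 3H LPS samples 1 to 5 and 67.0%, 59.2%, 66.3%, 63.3% and 63.3% in 6H LPS samples 1 to 5. 3H replicate 5 was the lowest of its group at 7 of the 9 CpGs of the region, and 6H replicate 2 was the lowest of its group at 7 as well. In 6H replicate 1, 8 of the 9 CpGs were the highest of the group. The smallest p at a CpG of this region belonged to position 44956550, which had a mean of 58.9% ± 2.25 (SD, n = 5) for 3H against 61.2% ± 3.19 (SD, n = 5) for 6H (edgeR log2 odds difference 0.14, adjusted p = 0.987). Position 44956589 had an edgeR adjusted p of 1.

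Chromosome 18 samples lay within a few percentage points of each other. The region was at 71.2%, 70.7%, 70.1%, 70.0% and 70.1% in 3H LPS samples 1 to 5 and at 72.1%, 69.7%, 70.2%, 71.2% and 71.3% in 6H LPS samples 1 to 5. The 6H samples included both the highest and the lowest of the 10, and the difference was 0.463 percentage points (interval -0.739 to 1.595, exact permutation adjusted p = 0.714). Without 6H replicate 1 it was 0.170 and without 6H replicate 2 it was 0.772. The region held 3 positions at or near 0%, 39636122, 39636133 and 39636564, with only 10 to 84 reads per sample. At the first and second of them no read was methylated in any sample, and a count of 0 allows up to 30% in the shallowest sample and up to 3.57% in the deepest at 39636122. Over the other 15 CpGs the mean was 84.5% ± 0.617 (SD, n = 5) for 3H and 85.0% ± 1.14 (SD, n = 5) for 6H. Of these 15, 13 had the higher mean in 6H, against 101 of all 135 CpGs (74.8%). The smallest p of the region was at the sparsely read position 39636564, from 1 methylated of 466 reads over all 10 samples, in 6H replicate 4. Position 39636529 differed by 0.572 percentage points and 39636377 had overlapping groups as well (edgeR adjusted p = 1 for both).

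Chromosome 19 was at 74.5%, 75.6%, 74.6%, 75.2% and 73.4% in 3H LPS samples 1 to 5 and at 75.0%, 74.4%, 73.0%, 74.6% and 74.7% in 6H LPS samples 1 to 5. The groups overlapped, with a difference of -0.330 percentage points (interval -1.53 to 0.832, exact permutation adjusted p = 0.741). At position 27019282, 3H replicate 5 was at 17.98%, from 87 of 484 reads, and the other 9 LPS samples were between 0.0796% and 0.568%. Among controls, 6H replicate 5 was at 18.5%, from 270 reads, and the other 9 were between 0.113% and 1.07%. 3H LPS replicate 5 had a median of 487 reads per CpG in the region, while the other LPS samples had between 2505 and 20307. It was the lowest of its group at 6 of the 7 CpGs of the region. At position 27019279, 3 bp from 27019282, it was at 77.3% and the other LPS samples were between 82.0% and 86.8%. The 6H controls were at 81.9% ± 5.62 (SD, n = 5) at 27019279. Positions 27019584 and 27019548 differed by 0.362 and 1.33 percentage points (edgeR adjusted p = 0.987 for both).

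**Figure D5:**
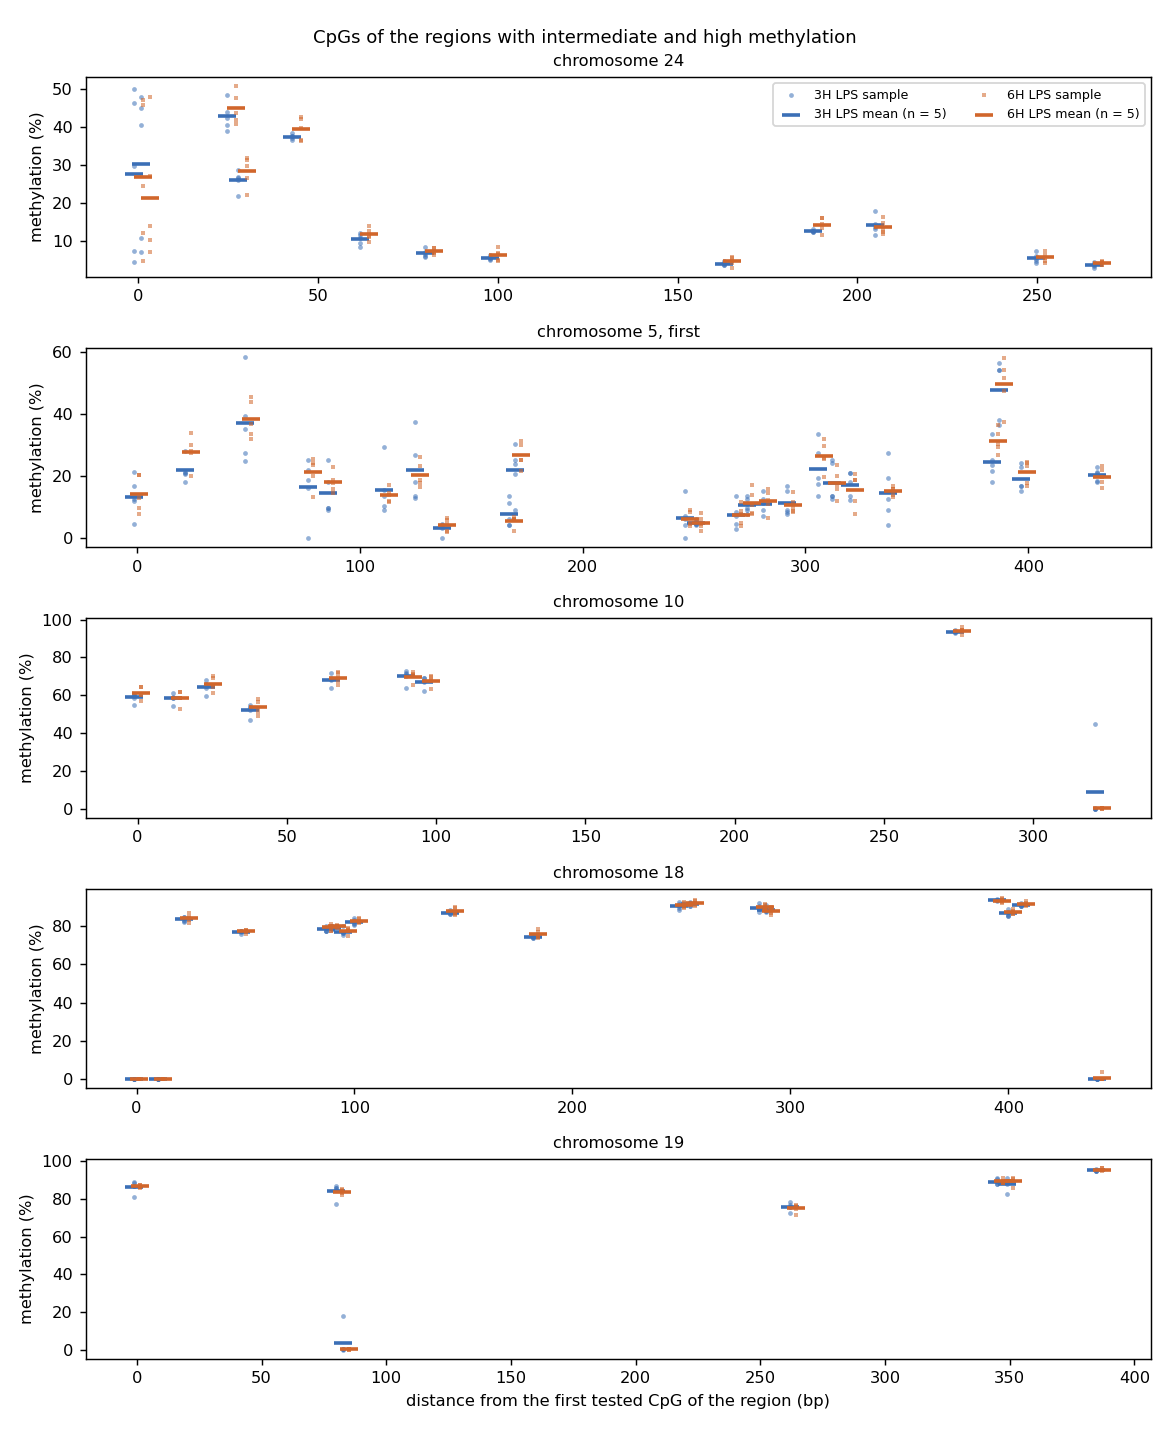
Methylation in percent (y axis; scales differ) of each CpG of the partly and mostly methylated regions by distance in bp from the first CpG (x axis), with samples as points and group means (n = 5) as bars. The group means lie close together at nearly all CpGs, and the wide spreads stand at the first 2 CpGs of chromosome 24, over the first chromosome 5 region and at single samples on chromosomes 10 and 19.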

How the data were processed

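The deposited tables, 1 per sample, held the percent methylated and both read counts (methylated, unmethylated) of each position, per the file headers. The submitters' processing notes name Trim Galore 0.4.5, FastQC 0.11.6, Bowtie2, Bismark and the build GRCz11, without settings. The deposited counts were used unchanged, and the deposited percent values matched those recomputed from them to within rounding. Samples were grouped by title. Counts under 10 reads were dropped sample by sample, and regions joined kept CpGs at most 500 bp apart, with 3 or more CpGs.

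Single CpGs were tested by quasi-likelihood in edgeR 4.0.16 under R 4.3.3, with 1 intercept per sample and all 20 samples in the fit, so that the controls add to the estimate of spread, and with Benjamini-Hochberg adjustment over 135 CpGs. For regions, group means were compared by exact permutation over all 252 splits, two-sided. The set difference among LPS samples minus that among controls was permuted over set labels, separately for LPS and control samples, after each set was centred.

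Members, regions and tests were chosen with earlier results of these data known. Every region was described, with its 3 CpGs of smallest p in the edgeR fit of all 20 samples. CpGs described for their level, for a lone sample or for values above 2% were chosen after their values were seen. Alternatives were coverage minimums of 5, 30 and 100 reads, pooled reads, medians, a log2 ratio, limma 3.58.1, exact tests per CpG, LPS samples alone, omission of CpGs at separate levels or with a lone sample, a replicate block and leaving out each LPS sample. No gene list could be matched without an annotation of the build. The procedures were tested on simulated data. In the simulated counts for edgeR, changes were placed only at CpGs with over 2% methylated, so recovery in the nearly unmethylated regions was not tested. Within each group no libraries held identical values, and libraries of different groups were not compared for this. Binomial intervals of single values cover counting error only, since the tables hold no molecular identifiers. Intervals of region differences come from the permutation test over samples. Software was Python 3.11.15 with scipy 1.17.1, numpy 2.4.6, pandas 2.3.3 and matplotlib 3.10.9.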

Additional observations from a re-analysis of the deposited data

Results flagged for a closer look

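A sample far from its group was searched for in 64 sets of values. These were 8 regions and 24 named CpGs, each in both LPS groups, and 4 sets had such a sample. Chance gives about 3.2, or 1 in 20, if the sets are independent and their values normally distributed. Percentages near 0 need not be normally distributed, so these counts say nothing on any single sample. At position 44956872 of chromosome 10, 3H LPS replicate 4 was at 45.1% and the other 3H LPS samples between 0.131% and 0.376%. The 45.1% is also the level of 9 of the 10 controls, while 3H control replicate 1 was at 0.271%. At position 27019282 of chromosome 19, 3H LPS replicate 5 was at 17.98% and the others of its group between 0.177% and 0.442%. 6H control replicate 5 was at 18.5% there. At position 39636564 of chromosome 18, 6H LPS replicate 4 was at 3.57%, from 1 methylated read, and the others of its group at 0%. At position 24973822 of chromosome 23, 3H LPS replicate 5 was at 0.3998% and the others of its group between 0.497% and 0.512%, a gap that is small in percentage points.

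In 3 places the set difference in LPS samples differed from that in controls. In the second chromosome 5 region it was 0.0923 percentage points in LPS samples and -0.199 in controls. On chromosome 23 it was 0.0920 in LPS samples and -0.157 in controls. The LPS value minus the control value was 0.291 and 0.249 percentage points (permutation adjusted p = 0.000252 and 0.000378). Taken alone, the set difference passed in controls (exact permutation adjusted p = 0.0317 for each region) and not in LPS samples. At position 54607259 of chromosome 3 the LPS value minus the control value was 3.88 on the log2 odds scale (edgeR adjusted p = 0.0303). This CpG was 1 of 135 that passed (0.741%). The set difference there was 0.499 percentage points in LPS samples and -0.770 in controls. The 3H controls were at 0.925% ± 0.889 (SD, n = 5) and the 6H controls at 0.155% ± 0.0146 (SD, n = 5).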

How the results depend on the processing

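No region difference between the LPS groups passed under any alternative run. The count of called CpGs stayed at 0, except that leaving out samples gave 0 to 1, and the 1 call, position 54607246, came without 6H replicate 5. Minimums of 30 and 100 reads left 108 CpGs in 7 regions, so the first chromosome 5 region has no value there. Directions of regions turned only in partly or mostly methylated ones, and the cause was not tested. With group medians the difference was -0.973 percentage points in the first chromosome 5 region, -1.33 on chromosome 24 and 0.0797 on chromosome 10. Chromosome 10 was at 1.10 with a minimum of 5 reads, 1.47 by its median CpG and 0.993 without CpGs with a lone sample, an alternative chosen after seeing the data. Chromosome 19 was at 0.479 by its median CpG and 0.198 without CpGs with a lone sample. By the median CpG, the set difference in LPS samples minus that in controls was -0.380 in the first chromosome 5 region and -0.633 on chromosome 24. Without the LPS and the control sample at the other treatment's level at the last chromosome 10 CpG, also chosen after seeing the data, it was -2.48 on chromosome 18. At the 3 near-0 CpGs of chromosome 18 only 4 control samples of each set reached 10 reads. A control without these CpGs has a higher region mean for that reason alone. Set differences against controls on chromosome 18 therefore compare unlike sets of CpGs and are not read as methylation differences.

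Leaving out each LPS sample, differences ranged from 0.157 to 0.234 on chromosome 3, 0.0702 to 0.112 in the second chromosome 5 region, 0.0704 to 0.109 on chromosome 23, 0.170 to 0.772 on chromosome 18, -1.25 to 1.13 on chromosome 10, -0.630 to 0.00822 on chromosome 19 and -1.15 to 1.21 on chromosome 24. The differences minus those in controls ranged from -0.206 to 1.73 in the first chromosome 5 region, -0.375 to 2.001 on chromosome 10 and -1.26 to 1.09 on chromosome 24. Single CpGs ranged from -11.2 to 0.0562 at 44956872, 0 to 0.893 at 39636564, -0.0543 to 2.17 at 27019548 and -4.41 to 0.0370 at 27019282. Another 10 of the 24 named CpGs kept their direction but moved by over 1.5 times when a sample was left out, such as 44944807 (2.19 to 6.17), 21640651 (1.26 to 3.83) and 21640721 (0.222 to 1.10), and 10 stayed within 1.5 times.

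The labels do not say whether a number marks fish of 1 origin. Same-numbered LPS samples were not treated as pairs in the main tests. A correlation of deviations over 0.1 was found in 2 of 5 pairs, and 2 of the 5 3H samples correlated best with their own number. This correlation ran over all 135 CpGs, nearly unmethylated ones included, so it cannot settle whether numbers mark pairs. At 21640622 same-numbered LPS samples lay within 5.35 percentage points of each other, but up to 34.6 apart at 21640624. With the number as a replicate block, edgeR called 0 CpGs and had 15 of unadjusted p under 0.05. The exact sign-flip test cannot go below p = 0.0625, and chromosome 3 stayed at 0.201 percentage points (exact adjusted p = 0.25). Depth limits the first chromosome 5 region and the near-0 CpGs of chromosome 18 most.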
